A study of Rattus norvegicus with 12 samples.

Results

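Ficolins and C-type lectin receptors are carbohydrate-binding proteins of innate immunity, and 9 of the genes that encode them were followed here through the cervix of pregnant and nonpregnant rats. They are the ficolins Fcn1 and Fcnb, the Dcir-type receptors Clec4a1, Clec4a2 and Clec4a3, and the receptors Clec7a, Clec12a, Clec10a and Cd209b. Members were all probes whose gene name in the array files equals one of these symbols, which gave 1 probe for each gene, 9 of the 26612 genes on the array. RefSeq writes the gene of the Fcn1 probe as Fcna, and that of the Cd209b probe as Clec4m. Each of 12 adult female Sprague Dawley rats gave 1 array, in 4 groups of 3. Pregnant rats were taken on day 21 after breeding (D21), before birth, and nonpregnant (NP) rats in proestrus. All rats were perfused with saline, and cells were dispersed from the trimmed, minced cervix with collagenase B and DNAase. Whole samples (D21 rats 5, 6 and 7; NP rats 8, 9 and 10) were frozen at that point. Depleted samples came from other rats (D21 rats 1, 2 and 4; NP rats 5, 6 and 7), whose cells first went through a longer procedure in which macrophages (Mφs) were bound by the ED1 antibody, which recognizes Cd68, and held back by magnetic beads. Whole samples had no antibody or bead step, so the removal of Mφs and the handling that goes with it cannot be told apart.

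Ficolins are secreted lectins with a fibrinogen-like domain. They bind acetylated sugars on microbes and dying cells and, with MASP proteases, start the lectin pathway of complement. In rodents, ficolin A is made in liver and by Mφs, and ficolin B by neutrophils and other myeloid cells of bone marrow. C-type lectin receptors sit in the membrane of Mφs, dendritic cells and neutrophils and bind sugars or other ligands through a shared fold. Some signal for activation through spleen tyrosine kinase, alone or with an adaptor such as Fcer1g, and others recruit phosphatases that inhibit the cell. Immune cells enter the cervix before birth, when its collagen is remodeled.

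Of the 9 probes, 5 lie on chromosome 4. In the rn4 build, the Clec4a1, Clec4a3 and Clec4a2 probes lie on the plus strand of chromosome 4 at chr4:159436189-159436248, chr4:159473860-159473919 and chr4:159573092-159573151. The Clec7a probe is on the minus strand at chr4:166725168-166725227, and that of Clec12a is on the minus strand of chr4_random:1813641-1813700, a piece assigned to the same chromosome without a place. Both ficolin probes are on the minus strand of chromosome 3, Fcn1 at chr3:3798481-3798540 and Fcnb at chr3:7011238-7011297. Those of Clec10a (chr10:57002796-57002855) and Cd209b (chr12:2261730-2261789) are on plus strands. The 60-base sequences of 4 probes are given from the array files, 5′ to 3′, because the ficolin pair and the Clec7a and Cd209b pair carry the contrasts that follow.
Fcn1: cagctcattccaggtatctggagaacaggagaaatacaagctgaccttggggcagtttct
Fcnb: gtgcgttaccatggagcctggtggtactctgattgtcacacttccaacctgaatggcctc
Clec7a: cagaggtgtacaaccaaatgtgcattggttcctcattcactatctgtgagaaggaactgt
Cd209b: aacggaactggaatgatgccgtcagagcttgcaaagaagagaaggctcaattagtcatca
No member probe shared a run of more than 8 bases with another member probe, and 8 of the 9 shared no run of 15 bases with any other probe on the array. Clec10a shared such a run with 1 probe of another gene, and its own probe was spotted 10 times on each array.

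Promoters of 8 members were found in the RefSeq table (GRCr8), which has no entry matched to Clec10a. The 250 bases before the start of Fcn1, Clec12a and Clec7a are given because the levels of Clec12a and Clec7a varied together across the whole samples, and those of Fcn1 apart from them. Capitals mark GAGGAA on either strand (TTCCTC on the opposite one), the core of sites bound by the myeloid factor PU.1.
Fcn1 (chr3:28847238-28847487, minus strand): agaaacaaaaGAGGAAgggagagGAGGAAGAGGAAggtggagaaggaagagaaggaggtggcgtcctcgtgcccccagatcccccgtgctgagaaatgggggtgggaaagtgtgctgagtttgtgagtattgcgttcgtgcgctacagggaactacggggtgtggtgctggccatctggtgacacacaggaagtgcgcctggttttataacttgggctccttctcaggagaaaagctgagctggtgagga
Clec12a (chr4:164483912-164484161, plus strand): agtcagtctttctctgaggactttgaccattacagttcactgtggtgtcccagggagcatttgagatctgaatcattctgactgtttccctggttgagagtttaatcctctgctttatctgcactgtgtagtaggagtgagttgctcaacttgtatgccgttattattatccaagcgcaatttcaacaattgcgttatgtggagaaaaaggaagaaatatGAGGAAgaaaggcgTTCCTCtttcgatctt
Clec7a (chr4:164599828-164600077, minus strand): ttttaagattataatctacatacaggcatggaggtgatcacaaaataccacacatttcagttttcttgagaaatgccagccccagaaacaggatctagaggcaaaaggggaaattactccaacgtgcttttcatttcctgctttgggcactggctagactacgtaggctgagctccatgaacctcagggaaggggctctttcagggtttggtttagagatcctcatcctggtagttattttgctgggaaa
These letters were found in 4 of the 8 windows (Fcn1, Clec4a1, Clec4a3 and Clec12a) and in 23.3% of 33469 such windows of all genes. Fcn1 has 3 copies and Clec12a 1 copy on each strand, whereas Fcnb, Clec4a2, Clec7a and Cd209b have none in this stretch.

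Levels are given as log2 of the intensity divided by the array's 75th percentile, so a level of 0 equals that percentile. It ranged from 290 to 1171 intensity units. The scanner software rated 44.9% to 61.7% of probes as well above background. Arrays were spread over 4 slides and 3 scan days. All 6 whole arrays were scanned on day 3, and 4 of the 6 depleted ones on days 1 and 2. The D21 whole arrays were on 1 slide with NP rat 10, and no D21 whole array shared a slide with a D21 depleted array. Slide and depletion therefore cannot be told apart within D21, and values with slide as a block rest on the other groups. As a check of the labels, 12 of 15 Mφ markers were higher in whole than in depleted D21 cervix, and 10 of the 13 that could be tested in NP, where 1 was lower. The summed linear level of the 15 markers (relative to the 75th percentile) was 90.3 to 104 in whole and 14.9 to 20.3 in depleted D21 samples, and 81.0 to 128 and 12.1 to 19.7 in NP. Cd68, the transcript of the antigen used for removal, did not pass the test in D21 (log2 difference -0.15 ± 0.62, SE) or NP (0.54 ± 0.62). In these bulk samples, fewer cells of a type and less RNA in each cell cannot be told apart.

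**Figure D1:**
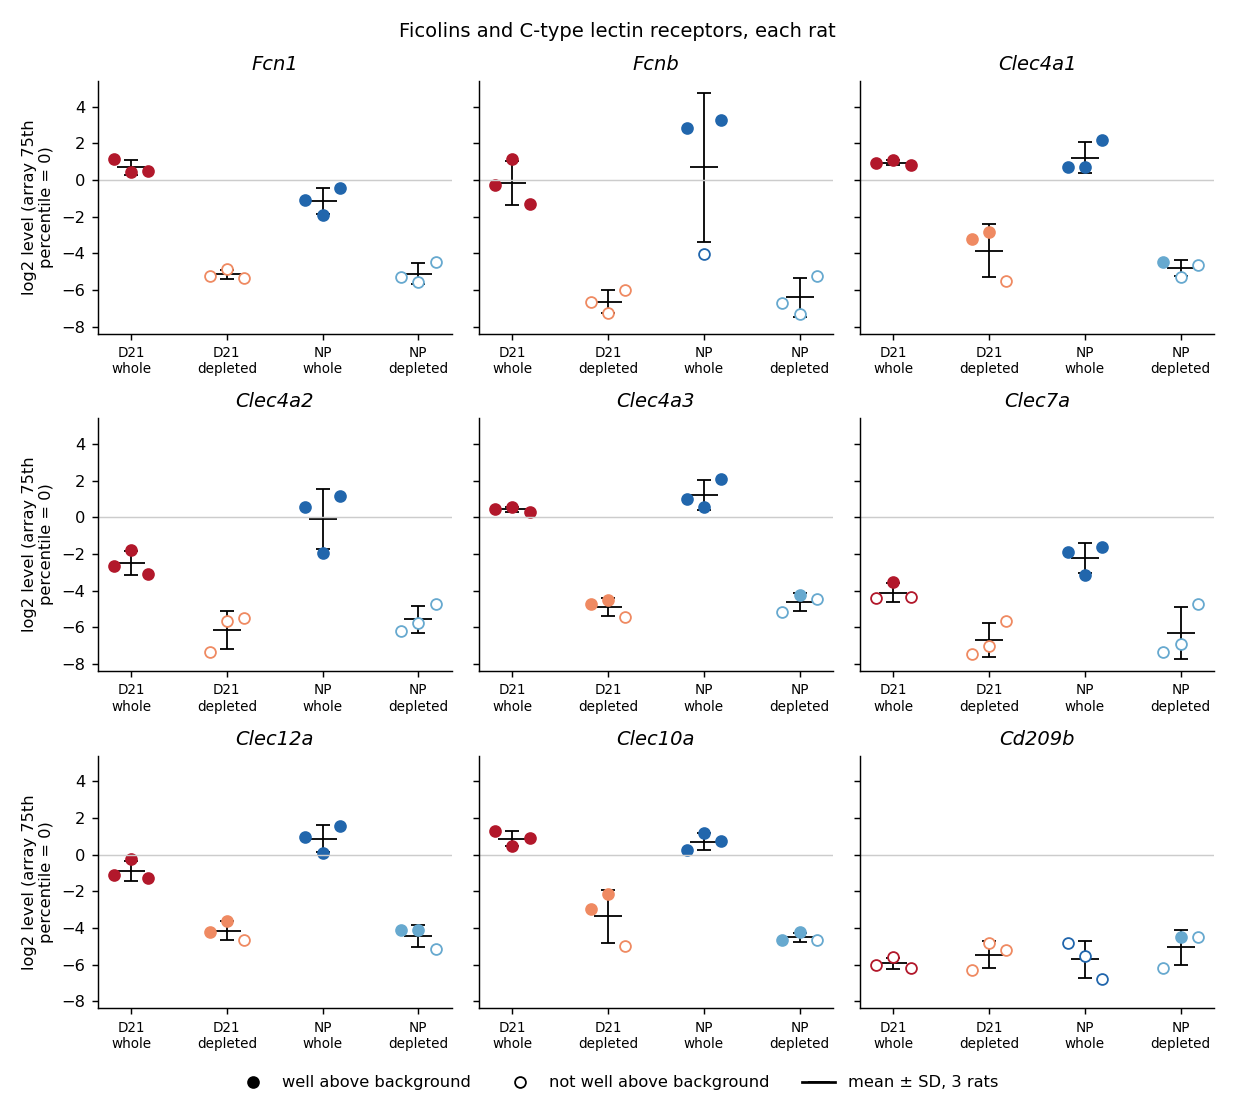
Log2 level of each ficolin and C-type lectin receptor (y axis, 0 is the 75th percentile of the array) in each of 12 rats by group, with the mean and SD of 3 rats. Filled points were well above background; whole samples lie above depleted samples for every gene shown other than Cd209b, and Fcnb in NP whole rat 9 stands at -4.01 against 2.82 and 3.27 in rats 8 and 10.

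In D21 rats, whole cervix held more transcript of both ficolins, of the 3 Dcir-type receptors, of Clec12a and of Clec10a than did Mφ-depleted cervix. That is 7 of the 9 genes, and all 7 passed the threshold used by the study, an unadjusted p below 0.01 and a change of 2-fold or more. Of all genes tested, 17.8% passed it in either direction and 10% as higher in whole samples, and 21.3% had whole samples that all lay above the depleted ones. Clec7a and Cd209b were not tested, because neither D21 group had them well above background on all 3 arrays. With normexp background correction, all 7 differences were smaller and 4 passed (Fcn1, Clec4a1, Clec4a3 and Clec10a). With the methods' t-test at the same threshold, Clec4a1, Clec4a2 and Clec10a did not pass. A gene entered the test through the group where it was bright, so the share of the tested members that differed is a description only.

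Neither ficolin was well above background on any depleted D21 array. Fcn1, ficolin A, had log2 levels of 1.13, 0.42 and 0.51 in whole D21 rats 5, 6 and 7, and of -5.22, -4.85 and -5.32 in depleted D21 rats 1, 2 and 4. The groups lay far apart. Whole samples were at least 38.9-fold higher (log2 difference 5.82 ± 0.39, adjusted p = 1.1e-05), where "at least" sets the bright group against the lowest signal well above background on each dim array. This bound holds for the processed signals, and with normexp correction the log2 difference of Fcn1 was 1.98 ± 0.57. Ficolin B (Fcnb) was at -0.29, 1.13 and -1.30 in whole D21 rats and at -6.65, -7.26 and -5.98 in depleted ones. It was at least 23.1-fold higher in whole samples (6.48 ± 1.53, adjusted p = 0.0159). With slide as a block this difference was 1.82 ± 2.87, with scan day as a block 5.69 ± 2.04, and with normexp background correction 2.05 ± 1.18, none of which passed.

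Of the Dcir-type receptors, encoded side by side on chromosome 4, Clec4a1 was at 0.93, 1.09 and 0.84 in whole D21 rats and at -3.23, -2.85 and -5.52 in depleted rats 1, 2 and 4. Whole levels were tightly grouped, and depleted rat 4 was the only one of the 3 not well above background. The 3 depleted D21 arrays lay on 3 slides. The difference was 28.1-fold (4.81 ± 0.62, adjusted p = 6.7e-04), and 2.41 ± 0.51 on the log2 scale with normexp correction. Clec4a3 was at 0.45, 0.58 and 0.27 in whole and at -4.71, -4.52 and -5.44 in depleted D21 rats, which is 40.0-fold (5.32 ± 0.41, adjusted p = 2.2e-05), and 1.95 ± 0.55 with normexp correction. Clec4a2 was at -2.65, -1.80 and -3.09 in whole D21 rats, and no depleted array was well above background (-7.36, -5.64 and -5.49). Its groups did not overlap and whole samples were at least 4.50-fold higher (3.65 ± 0.77, adjusted p = 0.00932). The difference of Clec4a2 was 0.84 ± 1.22 with slide as a block, 2.67 ± 0.89 with scan day as a block and 0.37 ± 0.70 with normexp correction, and did not pass in any of these.

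Clec12a, an inhibitory receptor of myeloid cells that senses uric acid crystals, was at -1.10, -0.27 and -1.28 in whole D21 rats and at -4.21, -3.60 and -4.64 in depleted rats. This was the smallest fitted difference of the 7 members, 9.64-fold (3.27 ± 0.45, adjusted p = 0.00109), and it fell to 1.03 ± 0.54 with normexp correction, which did not pass. Clec10a, which binds galactose and N-acetylgalactosamine, was at 1.27, 0.44 and 0.89 in whole and at -2.96, -2.15 and -4.98 in depleted D21 rats. Whole samples were 18.8-fold higher (4.23 ± 0.58, adjusted p = 0.00102), and depleted rat 4 was again the lowest. With normexp correction the difference was 1.81 ± 0.41. Clec7a, the beta-glucan receptor dectin-1, was well above background in whole D21 rat 6 alone (-3.52; -4.42 and -4.37 in rats 5 and 7) and in no depleted rat (-7.44, -7.01 and -5.65). The calculation of the bound gave 1.49-fold higher whole samples, without a test. It includes whole rats 5 and 7, which were not well above background, so it is not a strict lower bound. For Cd209b, a SIGN-type receptor known from Mφs of spleen, no D21 array was rated above background.

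In NP rats 7 of the 9 genes were also higher in whole than in depleted cervix, against 24.3% of the genes tested that passed in either direction and 13.6% that were higher. Whole samples all lay above depleted ones for 22.9% of the genes tested. Here Clec7a entered the test and Fcnb did not. With the methods' t-test Clec4a2 and Clec7a did not pass. With normexp correction the differences of the 5 genes that still passed were 2.82 (Clec4a2) to 3.99 (Clec4a1). Fcn1 was at -1.08, -1.89 and -0.45 in whole NP rats 8, 9 and 10 and not well above background in depleted rats 5, 6 and 7 (-5.31, -5.54 and -4.47), at least 9.70-fold apart (3.97 ± 0.39, adjusted p = 2.9e-05). With normexp correction the Fcn1 difference was 1.60 ± 0.57 and did not pass. Fcnb was at 2.82 and 3.27 in NP rats 8 and 10 but at -4.01 in rat 9, where it was not well above background. Its depleted NP levels were -6.68, -7.29 and -5.23, none well above background, so that the groups still did not overlap. The calculation of the bound gave 34.5-fold higher whole samples, without a test. It includes the level of rat 9, so it is not a strict lower bound.

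The receptors followed the ficolins. Clec4a1 was at 0.74, 0.74 and 2.18 in whole NP rats and at -4.47, -5.28 and -4.61 in depleted ones, 64.3-fold apart (6.01 ± 0.62, adjusted p = 3.7e-05). Clec4a3 was at 1.02, 0.54 and 2.11 against -5.19, -4.24 and -4.45, a 57.5-fold difference (5.85 ± 0.41, adjusted p = 3.5e-06). In both genes rat 10 was the highest whole sample. Clec4a2 spread more widely, at 0.57, -1.95 and 1.14 in whole NP rats, with rat 9 lowest, and at -6.20, -5.74 and -4.74 in depleted ones, none well above background. Whole samples were at least 20.2-fold higher (5.48 ± 0.77, adjusted p = 3.0e-04). For Clec7a the levels were -1.90, -3.15 and -1.64 in whole and -7.36, -6.91 and -4.71 in depleted NP rats, and no depleted array was well above background. The bound was 4.56-fold (4.10 ± 0.69, adjusted p = 0.00103), and with normexp correction the difference was 1.37 ± 0.66 and did not pass. With slide as a block it was 2.49 ± 0.56 and passed.

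Clec12a was at 0.94, 0.09 and 1.58 in whole and at -4.09, -4.10 and -5.14 in depleted NP rats, 39.8-fold apart (5.32 ± 0.45, adjusted p = 1.1e-05). Clec10a was at 0.23, 1.16 and 0.74 against -4.66, -4.21 and -4.67, 37.3-fold apart (5.22 ± 0.58, adjusted p = 6.2e-05). For Clec12a and Clec10a 2 of the 3 depleted NP arrays were still well above background, at levels more than 4 log2 units under those of whole samples. Cd209b was well above background in 1 NP rat, depleted rat 6 (-4.48), and in no whole sample. Its levels over the 12 rats ran from -6.79 to -4.48, with whole and depleted samples overlapping. Within slide 1, which holds NP whole rats 8 and 9 and depleted rat 7, the differences of the 8 genes other than Cd209b were 2.19 (Clec7a) to 5.66 (Clec12a), all higher in whole samples.

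**Figure D2:**
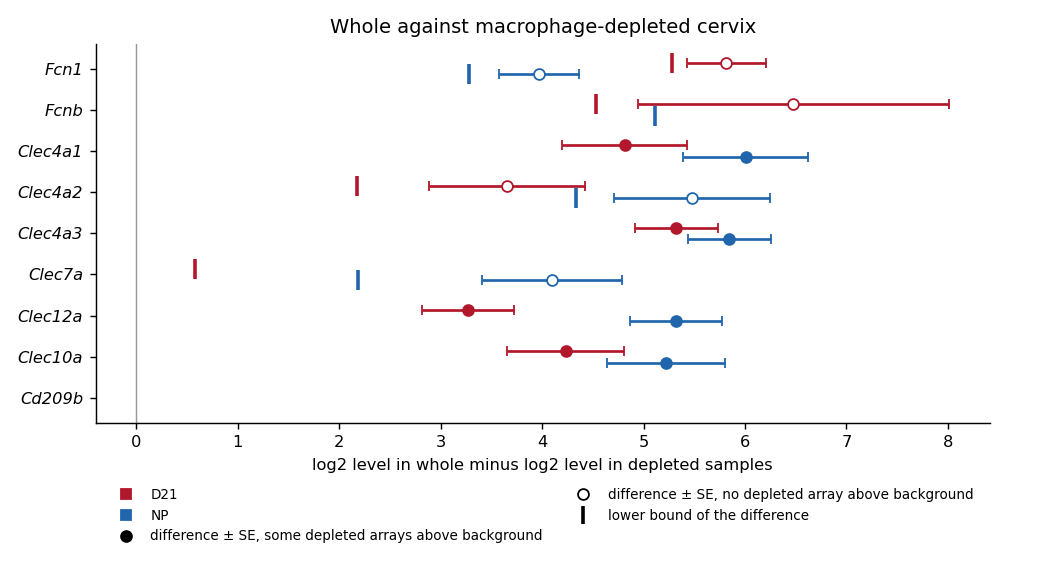
Log2 level in whole minus log2 level in Mφ-depleted cervix (x axis) for each gene in D21 (red) and NP (blue) rats, with SE, 3 rats a group. Open circles are genes with no depleted array well above background, for which the vertical tick gives the lower bound. Fcnb in NP and Clec7a in D21 have a tick only. It is not a strict bound, as some of their whole arrays were not well above background. Cd209b has no tick.

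Markers of other cells, and immediate-early genes, also differed between whole and depleted samples. In D21, 6 of 8 smooth muscle markers and 3 of 8 fibroblast markers were higher in whole cervix, and in NP all 8 of each list were. Of 10 epithelial markers, 5 were lower in whole cervix in D21 and 7 in NP, and of the immediate-early genes tested, 9 of 10 were lower in D21 and 8 of 9 in NP. Among neutrophil markers, 2 of the 5 tested were higher in whole samples in both D21 and NP, namely Csf3r and Retnlg. The summed linear level of the 8 neutrophil markers was 2.47 to 10.3 in whole and 0.410 to 0.725 in depleted D21 samples, and 2.93 to 60.1 and 0.637 to 6.85 in NP. Of the granule genes of early neutrophils, Ngp was not well above background on any of the 12 arrays, and Mpo and Elane on no D21 array. In whole NP cervix Mpo was well above background on 2 of the 3 arrays and Elane on 1, and in depleted NP cervix on none. Dendritic cell markers were higher for 2 of the 4 tested in each of D21 and NP. Mast cell markers were higher in whole cervix for 4 of the 5 tested in D21. In NP 3 of the 4 tested were higher and 1 was lower. Of T and NK cell markers, 1 of the 3 tested in D21 and the 1 tested in NP were higher. No B cell marker passed, of 2 tested in D21 and 1 in NP. The part of these cell types in the lectin differences was not tested.

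Between pregnant and nonpregnant whole cervix the members parted. Fcn1 was higher in D21, and Clec4a2 and Clec12a were lower. These are 3 of the 9 genes, 1 in the upward and 2 in the downward direction, where 8.48% of the genes tested passed the threshold, 5.39% higher and 3.09% lower in D21. Fcnb, Clec4a1, Clec4a3, Clec7a and Clec10a were tested and did not pass, and Cd209b was not tested. With the methods' t-test, and with normexp correction, none of the 3 passed. This comparison uses the same whole samples as those above.

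All 3 D21 levels of Fcn1 (1.13, 0.42 and 0.51) lay above all 3 NP levels (-1.08, -1.89 and -0.45). The difference was 3.54-fold (1.82 ± 0.39, adjusted p = 0.0242). Within the slide that holds the 3 D21 rats and NP rat 10 it was 1.14, and with slide as a block it did not pass (1.14 ± 0.51, adjusted p = 0.371). With normexp correction it did not pass either (1.38 ± 0.57). It passed in each of 12 fits that left out 1 rat.

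Clec12a was lower in each D21 rat (-1.10, -0.27 and -1.28) than in any NP rat (0.94, 0.09 and 1.58), with D21 rat 6 and NP rat 9 closest to each other. The difference was -1.75 ± 0.45 (adjusted p = 0.0456). It did not pass without D21 rat 5 (-1.64, adjusted p = 0.137), without D21 rat 7 (-1.56, adjusted p = 0.197) or without NP rat 10 (-1.40, adjusted p = 0.146), nor after quantile normalization (-1.84 ± 0.69) or normexp correction (-1.40 ± 0.54). Clec4a2 differed by -2.43 ± 0.77, at an unadjusted p of 0.00894 in limma and an adjusted p of 0.0881. NP rat 9 (-1.95) lay within the D21 range of -3.09 to -1.80, so the groups overlapped. The call was lost in 8 of the 12 fits that left out 1 rat, with differences between -1.82 (without NP rat 10) and -2.43. Without NP rat 9 it was -3.36 (adjusted p = 0.0122). Clec7a did not overlap between the groups either (-4.42, -3.52 and -4.37 against -1.90, -3.15 and -1.64), as did 44.2% of all genes tested. Its difference of -1.87 ± 0.69 missed the threshold (unadjusted p = 0.0199, adjusted p = 0.138, limma). It passed in 7 of 25 alternatives and not in the other 18, with differences from -2.46 to -0.30. Those that passed include the 6 whole arrays fitted alone (adjusted p = 0.0367) and slide as a block (-2.46 ± 0.58). Leaving out depleted NP rat 7 also gave a pass (adjusted p = 0.0575). Clec7a was not well above background in D21 rats 5 and 7.

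Clec10a (0.16 ± 0.58) and Clec4a1 (-0.27 ± 0.62) had differences smaller than their SE, and Clec4a3 (-0.79 ± 0.41, adjusted p = 0.281) did not pass. Fcnb had the widest spread of any member, with D21 levels of -1.30 to 1.13 inside the NP range of -4.01 to 3.27, and its difference of -0.85 ± 1.53 rested on NP rat 9. Without that rat it was -3.20 ± 0.74 and passed (adjusted p = 0.0299), and without rat 8 or rat 10 the difference was 0.22 or 0.44.

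**Figure D3:**
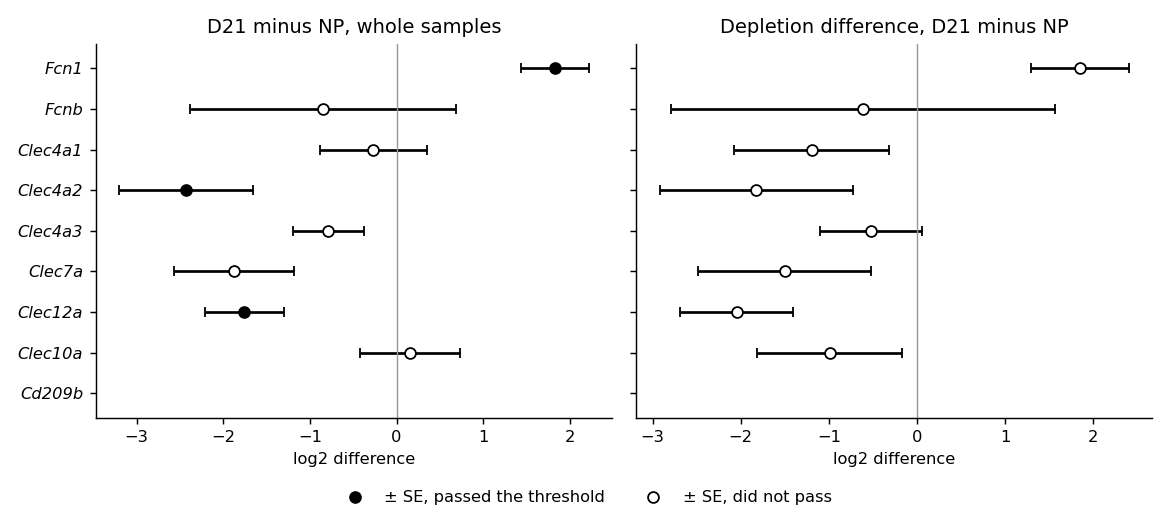
Left, log2 level in D21 minus NP whole cervix, and right, the whole-against-depleted difference in D21 minus that in NP, for each gene with SE (3 rats a group). Filled points passed the threshold: Fcn1 lies at 1.82, Clec4a2 at -2.43 and Clec12a at -1.75 on the left, and no gene passed on the right.

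NP rat 9 differed from NP rats 8 and 10 in more than Fcnb. It was the lowest of the NP whole samples in Fcn1, Fcnb, Clec4a2, Clec4a3, Clec7a and Clec12a, was level with rat 8 in Clec4a1, and was the highest in Clec10a. The neutrophil marker Retnlg, a resistin-like protein, was at 5.85, 0.21 and 5.72 in NP rats 8, 9 and 10 and at -0.23, 3.16 and 0.74 in D21 rats 5, 6 and 7. In both Fcnb and Retnlg, NP rats 8 and 10 were the highest of the 6 rats and D21 rat 6 came next. Csf3r, the receptor for granulocyte colony-stimulating factor, was at -1.68, -3.11 and -1.37 in the NP rats and at -3.20, -3.18 and -3.33 in the D21 rats. In Csf3r and S100a8, NP rats 10 and 8 were also the highest. Cxcr2 and S100a9 did not share this order. Relative to the mean of the 6 rats, Cxcr2 was highest in D21 rats 7 and 5 (0.56 and 0.46). S100a9 was higher in NP rat 9 (0.21) than in NP rat 8 (-0.02). None of the 5 neutrophil markers tested passed between D21 and NP whole samples, where Retnlg differed by -2.70 ± 1.32 and S100a8 by -1.61 ± 0.54. At an unadjusted p under 0.05 in limma S100a8 alone would be counted. Among 15 Mφ markers, Cd163, a scavenger receptor for hemoglobin, passed and was higher in D21 (3.61 ± 0.50, adjusted p = 0.00437). The part of neutrophils in the lectin differences was not tested.

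**Figure D4:**
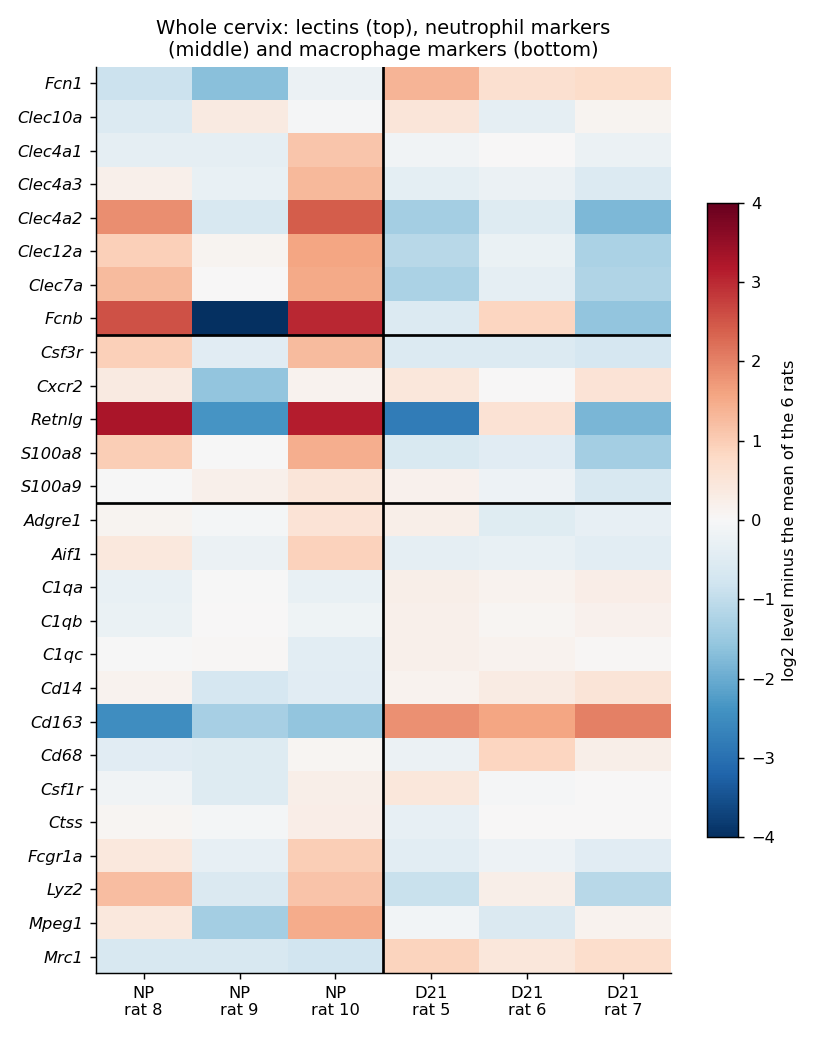
Log2 level minus the mean of the 6 whole samples (color, blue lower and red higher) for 8 lectin genes (top), 5 neutrophil markers (middle) and 14 Mφ markers (bottom) in each rat. Fcnb and Retnlg are both red in NP rats 8 and 10 and blue in NP rat 9 (colors end at -4 and 4). S100a9 is not blue in NP rat 9, and Cxcr2 is highest in D21 rat 7. Fcn1, Cd163 and Mrc1 are red in the 3 D21 rats, where C1qa, C1qb, C1qc and Cd14 also lie above 0, by 0.51 or less.

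Across the 6 whole arrays, Clec4a2, Clec7a and Clec12a varied together, with Pearson correlations of 0.97 to 0.99 between pairs. Clec4a3 correlated with these genes at 0.85 to 0.90, Clec4a1 at 0.52 to 0.60 and Fcnb at 0.59 to 0.76. Fcn1 correlated with Clec4a2, Clec7a and Clec12a at -0.46 to -0.63 and Clec10a at -0.50 to -0.59. These values describe 6 rats of 2 groups, which share the difference between D21 and NP, and are given without a test.

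In depleted cervix no member was well above background on all 3 arrays of either group, so none of the 9 was tested between D21 and NP, while 7.5% of the genes tested passed. Clec4a1 and Clec10a were still detected in depleted D21 rats 1 and 2 (-3.23 and -2.85, and -2.96 and -2.15), above every depleted NP level (-4.47 or lower, and -4.21 or lower). D21 rat 4 lay under the NP mean in both genes. Without rat 4, Clec4a1 and Clec10a could be tested and were called higher in depleted D21 than in NP samples. Leaving out rat 4 both let these genes into the test and took away their lowest D21 level. These calls are therefore a description only. Within slide 1, D21 rat 4 minus NP rat 7 was -0.90 for Clec4a1 and -0.31 for Clec10a.

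The change with depletion was compared between D21 and NP as an interaction, called at an adjusted p below 0.05, which 2.4% of 14565 genes passed. Of the 8 members tested, 0 passed, and 2 had an unadjusted p below 0.05 in limma. For Fcn1 the whole-against-depleted difference in D21 minus that in NP was 1.85 ± 0.56 (adjusted p = 0.113), and for Clec12a it was -2.05 ± 0.64 (adjusted p = 0.124). Neither passed. The values of the other 6 lay between -1.83 ± 1.10 (Clec4a2) and -0.52 ± 0.58 (Clec4a3), and that of Fcnb (-0.61 ± 2.18) had the largest SE. Without depleted D21 rat 4 the count was 3, with Clec4a1 (-2.02, adjusted p = 0.0441), Clec10a (-1.80, adjusted p = 0.037) and Clec12a (-2.29, adjusted p = 0.0469) past the threshold. Rat 4 held the lowest depleted D21 level of all 3 genes, so leaving it out makes their D21 difference smaller. These calls too are a description only.

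Other C-type lectin genes gave a mixed picture. Of 35 listed receptors and related genes, 27 were on the array and 12 could be tested in each of D21 and NP, where 5 and 6 were higher in whole than in depleted cervix and none was lower. Their median log2 difference was 1.13 in D21 and 2.23 in NP, beside -0.06 and -0.04 for all genes tested. Whole levels of Mrc1, the mannose receptor, exceeded depleted ones at least 22.3-fold in D21 and at least 7.19-fold in NP (4.63 ± 0.64). For Clec4a, a further receptor of the Dcir family, the bounds were 7.95-fold in D21 (4.98 ± 0.56) and 8.49-fold in NP (5.32 ± 0.56). Clec11a, a secreted growth factor for bone-forming and blood cells rather than a receptor, was 36.5-fold higher in whole NP cervix (5.19 ± 0.42) and did not pass in D21 (1.07 ± 0.42). Its interaction of -4.12 ± 0.59 passed (adjusted p = 0.00741), as did that of Mrc2, the collagen receptor Endo180, at -2.85 ± 0.40 (adjusted p = 0.00689). Between D21 and NP whole cervix, 2 of 12 passed, both lower in D21: Clec11a (-1.94 ± 0.42, adjusted p = 0.024) and Olr1, the receptor of oxidized lipoprotein (-1.73 ± 0.53, adjusted p = 0.0821).

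Some of the genes that C-type lectin receptors signal through were also higher in whole cervix. Of 21 listed signalling genes, 17 were tested in D21 and 5 were higher, and 16 were tested in NP, where 6 were higher and 1 lower. The median log2 difference of the tested genes was 0.59 in D21 and 0.70 in NP. Fcer1g, the adaptor chain shared with Fc receptors, was 20.9-fold higher in D21 (4.39 ± 0.40) and also higher in NP (5.13 ± 0.39). Tyrobp, the adaptor DAP12, was 23.4-fold (4.55 ± 0.63) and 48.2-fold (5.59 ± 0.63) higher. Spleen tyrosine kinase (Syk) did not follow them, at -0.18 ± 0.34 in D21, and was lower in whole NP cervix (-1.16 ± 0.34, adjusted p = 0.0224). In D21 against NP whole cervix 1 of 17 passed: Plcg2, a phospholipase downstream of Syk, was higher in D21 (1.76 ± 0.36, adjusted p = 0.0202).

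Few genes of a list of lectin pathway genes and collectins were detected. Of 9 listed genes 8 were on the array, and 3 were tested in D21 and 2 in NP. Masp1, a protease that ficolins bind, was at least 2.72-fold higher in whole than in depleted D21 cervix (3.56 ± 0.60, adjusted p = 0.00325). The scavenger collectin Colec12 was higher in whole cervix in D21 (7.89-fold) and NP (at least 24.7-fold). The collectin Sftpd, surfactant protein D, did not pass with depletion. It was 10.8-fold higher in D21 than in NP whole cervix (3.43 ± 0.86, adjusted p = 0.0403).

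The genes with the levels most like each member were sought over the 12 arrays among 14487 genes, members left out, by Pearson correlation and without a test. All 12 arrays share the difference between whole and depleted samples. For Fcn1 they were Cd4 (0.98), Pthlh (0.97) and Cadm3 (0.97), and for Fcnb Lypd8l1, Pira2 and LOC688112 (0.98 each). Clec10a was closest to C1qa, C1qb and Trem2 (0.99 each), and Clec4a1 to Tnfaip8l2, Trem2 and P2ry6 (0.99 each). The nearest genes were Gpr18 (0.99) for Clec4a2, Ms4a6bl1 (1.00) for Clec4a3, and Slc24a3 (0.99) for Clec12a. For Clec7a the 3 nearest (RGD1562667, CB544572 and ENSRNOT00000050106, 0.98 to 1.00) bear only locus or accession names in the array files.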

How the data were processed

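RNA of dispersed cervix cells was measured on Agilent 4x44K v3 rat arrays, 1 rat an array. The authors deposited the spot intensity as Feature Extraction 9.5.3.1 wrote it (background subtracted, low signals replaced by a small positive value, no normalization between arrays), and a table of ratio values in which each intensity is scaled to the array's 75th percentile. Here, control spots and outlier spots (294 to 648 an array) were left out and spots of a probe averaged. From the log2 of the deposited intensities, each array's own 75th percentile was taken off. Of 30367 probes, 17328 (57.1%) were named by accession in RefSeq, and the others kept the deposited name. The brightest probe stood for a gene. Genes entered a test if at least 1 of the groups compared had all 3 arrays well above background. Tests used limma 3.58.1 in R 4.3.3 over all 12 arrays and Benjamini-Hochberg adjustment over all genes tested. Calls use the threshold of the methods (unadjusted p below 0.01 and 2-fold), and the interaction an adjusted p below 0.05. Pipelines were tested on simulated data. Low signals on dim arrays lie near background, which limits the precision of differences from depleted samples, and 3 arrays a group limit that of all. The named genes are the 9 members, up to 4 of the largest changes of each listed gene group, Cd68, and the 3 genes most like each member. S100a8, S100a9, Cxcr2, Mpo, Elane, Ngp, Syk and Olr1 were named after their values were seen. The members and lists were chosen with earlier results of these data known. Mrc1 is in 2 lists. Some listed genes are counted but not reported here by name. Alternatives were the methods' t-test, other thresholds, arrays, background correction, normalization, filters, probe summary, weights, blocks, the authors' values and leaving out each rat.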

Additional observations from a re-analysis of the deposited data

How the results depend on the processing

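Of the 7 members called between whole and depleted D21 cervix, 4 remained with the methods' t-test at the same threshold, 0 with its adjusted p, and 4 with normexp background correction; Fcn1 and Clec4a3 were among those called in both sets of 4. Leaving out 1 rat at a time kept the count at 7. In NP the count was 5 to 8 in the alternatives that left members to test, and 7 to 8 with 1 rat left out. Between D21 and NP whole cervix, the 3 calls became 0 with the methods' t-test at either threshold, 0 with normexp correction and 5 with array weights, and leaving out 1 rat gave 1 to 4: it was 1 without NP rat 10, D21 rat 5 or D21 rat 7. In depleted cervix leaving out 1 rat gave 0 to 2. The interaction count of 0 became 2 at an unadjusted p below 0.01 with 2-fold, 1 with array weights, and 0 to 3 with 1 rat left out.

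The sign turned for differences that did not pass with all rats. With 1 rat left out, the D21 minus NP whole difference of Fcnb was -3.20 (without NP rat 9) to 0.44 (without NP rat 10), and 0.22 without NP rat 8. Its interaction was -2.97 without NP rat 9, 0.45 without NP rat 8 and 0.68 without NP rat 10. Clec4a1 was -0.51 to 0.21, the latter without NP rat 10. Clec10a was -0.082 (without NP rat 8) to 0.38 (without NP rat 9), and -0.043 without D21 rat 5. The cause was not tested. A filter on every array compared left no member to test with depletion or in the interaction. With the percentile over probes well above background on all arrays, the median of all genes moved from -0.06 to 0.13 in D21 depletion, and the share of calls that were higher from 56.5% to 70.3%. No paired analysis was possible because the groups compared share no rat numbers.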
